A study of Mus musculus with 8 samples.

Results

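The sarcomere genes of heart and skeletal muscle were followed in mouse aortic smooth muscle cells (MASMCs), a cell type whose own contractile apparatus is built from other isoforms. The list held 42 gene symbols, chosen by name for their use in cardiac or skeletal muscle, and 41 of them matched a row among the 18533 genes of the count files. Sarcolipin (Sln) was not analysed here. Of the 41 genes, 3 were grouped as used mainly in atria, 4 in ventricles, 9 in both heart chambers, 18 in skeletal muscle, and 7 across striated muscle. The list was drawn up with the genotype differences of these samples known, so those differences are given as a description. The members entered the fit across all genes, and nothing is read from its calls on them. RNA-Seq had been run on MASMCs from wild-type mice (WT, n = 4) and from mice lacking Hint1 in all cells (Hint1-/-, n = 4). Cells of both groups received 20 ng/ml PDGF-BB, a growth factor for smooth muscle, for 24 h, so no sample without PDGF-BB bears on these values. The study's methods give male mice of 4 to 6 weeks as donors and name the thoracic aorta in 1 place and the whole aorta in another, stripped of adventitia and endothelium before digestion with collagenase. The labels do not say whether the 4 samples of a genotype came from separate mice or cultures, so the spread given here is that between deposited samples.

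The sarcomere is the repeating contractile unit of striated muscle. Thick filaments of myosin, each motor built of heavy chains with essential and regulatory light chains, pull on thin filaments of actin, and the troponin complex (T, I, and C subunits) makes this pull depend on calcium. Alpha-actinin, titin, nebulin, and related proteins anchor and measure the filaments, and calcium enters the cytosol through ryanodine receptors and is pumped back by SERCA. Atria, ventricles, and fast and slow skeletal muscle each use their own paralogs of these proteins. Smooth muscle has no troponin-based switch and uses Acta2, Actg2, and Myh11 for its filaments.

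Myl7, Myl3, Actc1, Myh6, and Myh7 had at most 4 counts over the 4 WT libraries and at least 16 over the Hint1-/- libraries. The DNA just before their RefSeq starts is printed because the values turn on these genes. Sequences are from RefSeq on build GRCm38.p6 and are shown 5′ to 3′ on the gene's strand. They span chr11:5898783-5899032 (minus strand) for Myl7, chr9:110763428-110763645 (plus strand) for Myl3, chr2:114052888-114053125 (minus strand) for Actc1, chr14:54966642-54966857 (minus strand) for Myh6, and chr14:54994627-54994876 (minus strand) for Myh7. Each ends just before the gene's RefSeq start, except those of Myl3, Actc1, and Myh6. These end 32, 12, and 34 bases before it, where the GENCODE annotation places an exon. They lie within the spans that GENCODE gives these genes, which for Myl3 is 110741861 to 110769798, so they are upstream of the RefSeq start only. Capitals mark matches to the CArG box, the motif of serum response factor, to GATAA, the core of GATA factor motifs, and to CATTCC, the core of the TEAD motif, on either strand.
Myl7: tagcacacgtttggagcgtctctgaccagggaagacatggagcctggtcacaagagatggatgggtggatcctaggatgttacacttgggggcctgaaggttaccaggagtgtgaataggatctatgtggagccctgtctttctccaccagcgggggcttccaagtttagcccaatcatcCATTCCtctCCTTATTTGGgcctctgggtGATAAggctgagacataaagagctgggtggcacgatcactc
Myl3: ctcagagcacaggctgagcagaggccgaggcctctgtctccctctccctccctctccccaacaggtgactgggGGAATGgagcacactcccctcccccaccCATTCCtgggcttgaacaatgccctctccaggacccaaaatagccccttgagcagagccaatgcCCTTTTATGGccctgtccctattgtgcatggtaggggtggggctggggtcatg
Actc1: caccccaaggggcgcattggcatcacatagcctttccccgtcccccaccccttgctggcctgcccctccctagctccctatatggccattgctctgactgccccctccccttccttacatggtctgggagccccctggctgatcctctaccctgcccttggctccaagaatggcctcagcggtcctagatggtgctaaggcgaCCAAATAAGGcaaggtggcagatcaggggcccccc
Myh6: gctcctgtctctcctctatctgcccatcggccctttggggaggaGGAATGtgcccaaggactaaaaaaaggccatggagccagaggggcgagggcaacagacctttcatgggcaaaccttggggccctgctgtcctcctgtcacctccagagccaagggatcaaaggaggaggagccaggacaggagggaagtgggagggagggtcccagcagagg
Myh7: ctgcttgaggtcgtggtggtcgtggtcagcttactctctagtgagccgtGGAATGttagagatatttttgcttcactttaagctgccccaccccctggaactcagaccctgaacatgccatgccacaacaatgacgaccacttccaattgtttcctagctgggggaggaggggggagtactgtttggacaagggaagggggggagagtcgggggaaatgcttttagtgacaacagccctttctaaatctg

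In the 250 bases before the start, Myl7 held CATTCC at −70 to −65, a CArG box at −61 to −52, and GATAA at −41 to −37, counted from the start. Myl3 held CATTCC at −177 and −149, a CArG box from −85, and GATAA at −18 within the unprinted bases. Actc1 held a CArG box at −47 to −38, and Myh6 and Myh7 each held a single CATTCC, which began at −206 and −201. None of these matches overlapped another. A CArG box stood in 1.41% of 27025 mouse promoter windows of this length and in 6 of the 37 members with a window. GATAA stood in 23.0% of all windows and in 10 of the 37, and CATTCC in 12.6% and in 12 of the 37. Of the other motifs searched, the MEF2 site stood in 3.03% of all windows and in 6 of the 37, AGGTGT, the core of the T-box motif, in 12.0% and in 7, and TATAAA, on the gene's strand only, in 8.13% and in 8. None of these latter 3 motifs lay in the windows of the 5 genes. A match describes the letters and does not show that a factor binds.

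**Figure D1:**
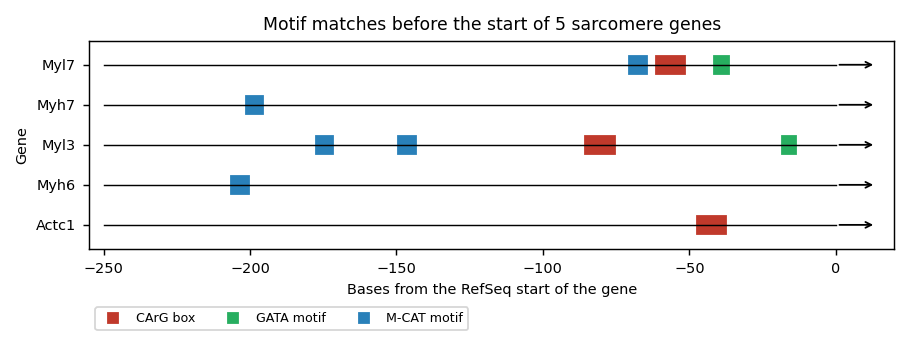
Each horizontal line is the 250 bases before the RefSeq start of a gene, with the distance from the start in bases on the x axis, and each coloured block is a motif match on either strand. Myl7 and Myl3 hold a CArG box, a GATA motif, and the TEAD motif CATTCC (named M-CAT), Actc1 a CArG box alone, and Myh6 and Myh7 a TEAD motif alone.

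Each library held between 20778077 and 20888041 estimated counts, and TMM factors lay between 0.993 and 1.01, so counts are compared as deposited. The files give estimated counts with decimals, since reads that fit several transcripts or genes are divided among them. Hint1 counts ran from 2272 to 2364 in the WT group and from 713 to 778 in the Hint1-/- group, with no overlap, and the pooled ratio of 0.319 shows that reads of Hint1 remained in Hint1-/- samples. Counts per gene do not show whether these reads lie outside the deleted part. The smooth muscle genes Acta2 (826 ± 44.6 CPM, SD, n = 4) and Tagln (403 ± 12.2 CPM, SD, n = 4) were abundant in WT MASMCs, where CPM is a count scaled to the library total, while Myh11 reached 20.4 ± 1.03 CPM (SD, n = 4). In bulk RNA, fewer cells that express a gene and less of its RNA per cell cannot be told apart. A gene was called where edgeR's quasi-likelihood test gave an adjusted p under 0.05 and the fold change exceeded 1.5, and 14 of the 41 members had enough counts to be tested. Of these, 4 were called higher and 1 lower, where 2.83% of the 13535 genes tested were called, 1.34% higher and 1.49% lower. The list was chosen with these differences known, so the count of called members cannot be read against that share. The 4 became 7 without WT replicate 2 and 7 with no filter on low counts. Myl7, Myh6, and Myh7 reached 10 counts in no WT sample and so passed the filter only through the Hint1-/- samples. Nebl, the member called lower, reached 10 counts in no Hint1-/- sample and so passed only through the WT samples. The other 27 members were too low to test, and 16 members had fewer than 20 pooled counts in both genotypes.

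Among atrial genes, Myl7 was found in Hint1-/- samples alone and Myl4 was at the same level in both genotypes. Myl7, on chromosome 11 from 5896637 to 5898782, encodes the regulatory myosin light chain of atrial muscle. It had 0 counts in each of the 4 WT samples and 28, 16, 34, and 13 counts in Hint1-/- replicates 1, 2, 3, and 4. All 8 values were whole numbers, and none of its 541 distinct 50-base stretches, the length of the reads, occurs in another gene with a row. Genes without a row in the count files were not searched. Pooled over 4 libraries, its 91 counts against 0 were at least 30.3-fold higher, taking 3 counts over the group as the most that a count of 0 allows, and the lower end of the 95% interval of the ratio was 24.2. These intervals are exact (Clopper-Pearson) and cover counting error only. Replicate 3 carried the most reads, and without it the bound was 19.0. Myl4, the essential light chain of atria and of embryonic muscle, had 57.7, 58.38, 68.61, and 68.75 counts in WT samples and 72.17, 57.37, 58.9, and 59.1 in Hint1-/- samples. The 2 sets of values overlapped, and the ratio of pooled counts was 0.977 (95% interval 0.816 to 1.17). Nppa, which encodes the natriuretic peptide of atria, had 19 pooled WT counts and 11 pooled Hint1-/- counts, with 1 to 8 in a sample. Its ratio of 0.579 had an interval from 0.249 to 1.28, so at this depth no difference was detectable for Nppa.

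Among ventricular genes, Myh7 and Myl3 were higher in every Hint1-/- sample, whereas Myl2 and Pln stayed near 0 in both genotypes. Myh7 encodes the slow beta-myosin heavy chain of ventricle and slow skeletal muscle and lies on chromosome 14 from 54970684 to 54994626. Its counts were 0, 2, 2, and 0 in WT samples and 23.08, 30.91, 46.84, and 28.24 in Hint1-/- samples. The lowest Hint1-/- sample thus stood far above the highest WT sample, and the pooled ratio was 32.3 (95% interval 12.3 to 120). Myl3, the essential light chain of ventricle, lay under the count minimum set for naming and was picked after its values were seen. It had 0 counts in all 4 WT samples and 4.22, 4, 7, and 0.98 in Hint1-/- samples. Against the floor of 3 counts its pooled ratio was 5.40, or 3.07 without Hint1-/- replicate 3. The lower end of the 95% interval of the ratio was 3.91. The exons of Myl3 overlap those of Pth1r on the other strand, which share 4.19% of its 50-base stretches. Pth1r had 42 to 50 counts in a WT sample and 37 to 48 in a Hint1-/- sample. Myl2, the regulatory light chain of ventricle and in heart an abundant partner of Myh7, had 7.19 pooled WT counts and 7 pooled Hint1-/- counts. Pln, which encodes the SERCA inhibitor phospholamban, had 1 count in a single WT sample and 0 in Hint1-/- samples.

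**Figure D2:**
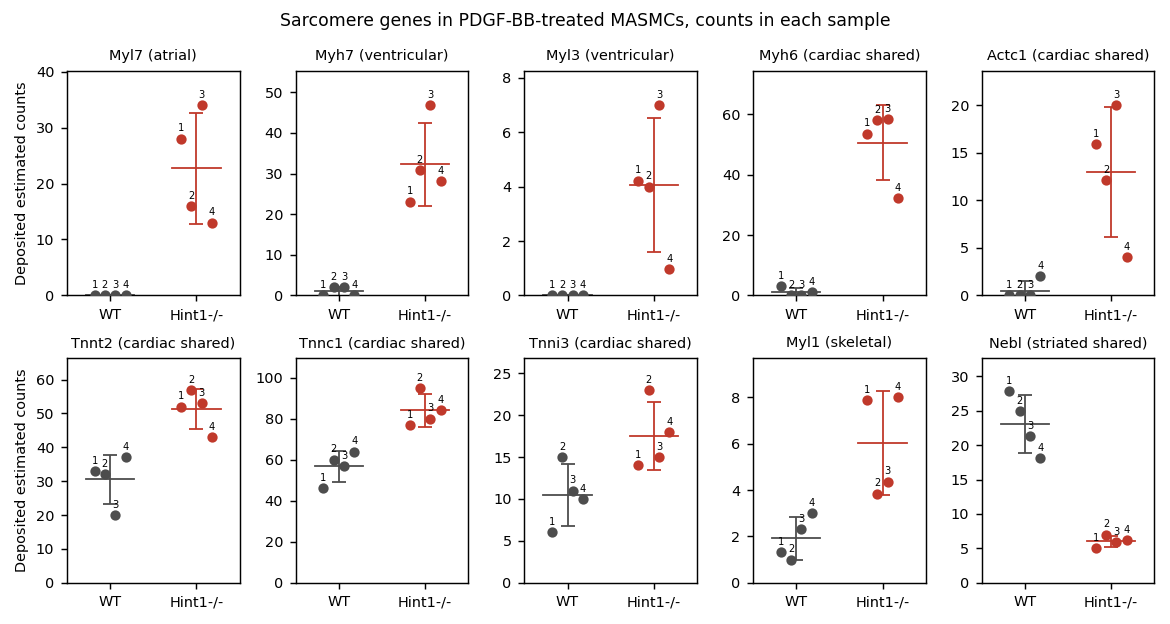
Deposited estimated counts (y axis, starting at 0, with its own scale in each panel) of 10 members in 4 WT samples (grey) and 4 Hint1-/- samples (red), numbered by replicate. Horizontal lines are means and whiskers are SD. Myl7, Myh7, Myl3, Myh6, and Actc1 have at most 3 counts in any WT sample, while Nebl has at least 18.11 in each WT sample and at most 6.99 in each Hint1-/- sample.

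Among genes shared by both heart chambers, Myh6 and Actc1 were near 0 in WT samples and at 4 to 58.46 counts in Hint1-/- samples, and the 3 cardiac troponin genes, which WT MASMCs already expressed, were 1.48 to 1.68 times as high. Myh6 encodes the fast alpha-myosin heavy chain, the main cardiac motor of the adult mouse, on chromosome 14 from 54941921 to 54966927. Counts of Myh6 were 3, 0, 0, and 1 in WT samples and 53.56, 58, 58.46, and 32.3 in Hint1-/- samples, without overlap. The pooled ratio was 50.6 (95% interval 19.5 to 187), and without WT replicate 1, which held 3 of the 4 WT counts, it was 152. Actc1 encodes cardiac alpha-actin, on chromosome 2 from 114047282 to 114053548. It had 0, 0, 0, and 2 counts in WT samples against 15.89, 12.13, 20, and 4 in Hint1-/- samples. The pooled ratio was 26.0 (95% interval 6.85 to 220). Without WT replicate 4, which held both WT counts, it was 17.3 against the floor of 3 counts. None of the 50-base stretches of Actc1 occurs in another gene with a row. Still, 6 of its 8 values were whole numbers and the others carried decimals, so some of its reads had been divided in the counting.

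The troponin genes encode the calcium switch of the thin filament. Tnnt2, cardiac troponin T, which ties the complex to tropomyosin, had 33, 32, 20, and 37 counts in WT samples and 52, 57, 53, and 43 in Hint1-/- samples. The genotypes did not overlap, and the log2 fold change was 0.76 (SE 0.18). Tnnc1, the calcium-binding subunit of heart and slow muscle, had 46, 60, 57, and 64 counts in WT samples and 77, 95, 80, and 84 in Hint1-/- samples. These did not overlap either, and the log2 fold change was 0.58 (SE 0.13). Tnni3, the inhibitory subunit of heart, had 6, 15, 11, and 10 counts in WT samples and 14, 23, 15, and 18 in Hint1-/- samples. The highest WT sample lay above the lowest Hint1-/- sample, and the log2 fold change was 0.74 (SE 0.29). Tnni3 shares 2.76% of its 50-base stretches with Dnaaf3, which overlaps it on the same strand and had 81 to 94 counts in a WT sample and 100 to 127 in a Hint1-/- sample. The part of Dnaaf3 reads in the Tnni3 values was not tested.

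Of the other genes shared by both chambers, none separated the genotypes. Mybpc3, the myosin-binding protein of the cardiac thick filament, had 3, 2, 3, and 6 counts in WT samples and 8, 8, 5, and 2 in Hint1-/- samples, a ratio of 1.64 (95% interval 0.810 to 3.45). Casq2, the calcium buffer of the cardiac sarcoplasmic reticulum, had 5, 10, 7, and 8 counts against 6, 5, 5, and 5, a ratio of 0.700 (0.381 to 1.26). Nppb, a natriuretic peptide gene used as a sign of cardiac stress, had 10, 14, 9, and 5 counts against 3, 10, 9, and 9, a ratio of 0.816 (0.491 to 1.35). Ryr2, the cardiac calcium release channel, had 9.35 pooled WT counts and 14.25 pooled Hint1-/- counts.

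**Figure D3:**
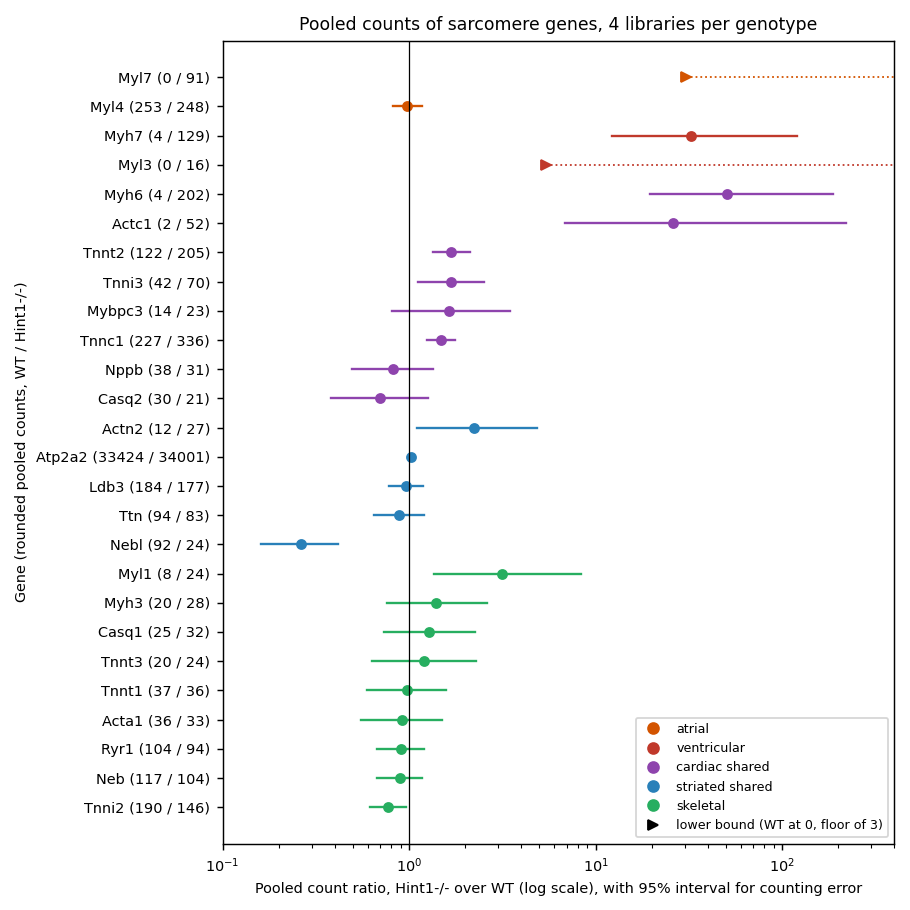
Ratio of pooled counts, Hint1-/- over WT, on a log x axis for the 25 members with at least 20 pooled counts in a genotype and for Myl3, grouped by muscle type, with rounded pooled counts beside each name. Points are ratios with 95% exact intervals for counting error, and triangles, labelled lower bounds, are ratios against the floor of 3 counts. Myh6, Myh7, Actc1, Myl7, and Myl3 stand to the right of the others, and Nebl stands alone on the left at 0.262.

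Among the genes grouped here across striated muscle, Nebl, a gene of cardiac Z-discs, was lower in every Hint1-/- sample. The abundant calcium pump Atp2a2 overlapped between the genotypes. Nebl encodes nebulette, a nebulin-related protein of cardiac Z-discs, from a locus on chromosome 2 between 17343909 and 17731464 that also gives a broadly expressed nonmuscle protein, and the counts do not separate these transcripts. It had 27.9, 24.89, 21.34, and 18.11 counts in WT samples and 5.06, 6.99, 5.92, and 6.19 in Hint1-/- samples. The ratio was 0.262 (95% interval 0.160 to 0.414), with a log2 fold change of −1.91 (SE 0.28), and the genotypes did not overlap. Actn2, the alpha-actinin of striated Z-discs, ran the other way, with 0, 2.01, 4.03, and 5.97 counts in WT samples and 3, 9.97, 9.01, and 4.89 in Hint1-/- samples. Its values overlapped, and its ratio of 2.24 had an interval from 1.10 to 4.85. Ldb3, another Z-disc protein gene, had 51, 37, 36, and 60 counts in WT samples and 54, 42, 48, and 33 in Hint1-/- samples. Ttn, which encodes the giant spring protein titin, had 16, 31, 24, and 23 counts against 25, 13, 17, and 28. The genotypes overlapped in Ldb3, at a ratio of 0.962 (95% interval 0.778 to 1.19), and in Ttn, at 0.883 (0.649 to 1.20). Atp2a2, the SERCA2 pump of heart that smooth muscle also expresses, had 8378, 8446, 8223, and 8377.01 counts in WT samples and 8390, 8430, 8473, and 8708 in Hint1-/- samples. Its ratio of 1.02 (1.00 to 1.03) shows how narrow the counting interval becomes at high depth. Mb, myoglobin, had 0 pooled WT counts and 2.02 pooled Hint1-/- counts, and Ckm, muscle creatine kinase, had 5 in each genotype.

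The 18 skeletal muscle genes had 597 pooled counts in WT and 589 in Hint1-/- MASMCs, a ratio of 0.987 (95% interval 0.879 to 1.11). Tnni2, fast skeletal troponin I, was the most abundant of them, with 39, 35, 58, and 58 counts in WT samples and 35, 46, 37, and 28 in Hint1-/- samples. Neb, which encodes nebulin, had 26, 31.99, 31, and 28 counts in WT samples and 22, 24.97, 34, and 23 in Hint1-/- samples. Ryr1, the calcium release channel of skeletal muscle, had 15, 22, 37, and 30 counts against 19, 29, 28, and 18. Values overlapped in each of the 3 genes, with ratios of 0.768 for Tnni2 (95% interval 0.615 to 0.958), 0.889 for Neb, and 0.904 for Ryr1. Acta1, the skeletal alpha-actin, had 9.11, 3.14, 12.39, and 11.15 counts in WT samples and 8.19, 8.08, 10.25, and 6.06 in Hint1-/- samples. Unlike cardiac Actc1, it was present in WT MASMCs, and its ratio was 0.910 (95% interval 0.549 to 1.51). All of its values carry decimals, and 1.83% of its 50-base stretches occur in Actb or Actg1, the abundant nonmuscle actins.

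The remaining skeletal genes with at least 20 pooled counts overlapped between the genotypes, except Myl1. Myl1, the essential light chain of fast muscle, had 1.32, 1, 2.32, and 3 counts in WT samples and 7.88, 3.85, 4.36, and 8.02 in Hint1-/- samples, a ratio of 3.16 (95% interval 1.35 to 8.30). Tnnt1, slow troponin T, had 8, 4, 11, and 14 counts in WT samples against 7, 14, 7, and 8 in Hint1-/- samples. Tnnt3, fast troponin T, had 3, 5, 7, and 5 counts against 12, 1, 3, and 8. Both skeletal troponin T genes thus overlapped between the genotypes, unlike Tnnt2 of the heart. Casq1, the calcium buffer of fast muscle, had 3, 6, 6, and 10 counts in WT samples against 10, 6, 6, and 10 in Hint1-/- samples. Myh3, the embryonic myosin heavy chain, had 6, 4, 2, and 7.88 counts against 4.03, 9.84, 6.72, and 7.24. The ratios of these 4 genes lay between 0.973 for Tnnt1 and 1.40 for Myh3, and each interval held 1.

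The adult and perinatal skeletal myosin heavy chains were almost absent. Myh1, Myh2, and Myh4 of adult fibres and Myh8, the perinatal chain, which follow Myh3 in a cluster on chromosome 11 12.3 to 12.4 Mb from Hint1, had between 0 and 1.12 pooled WT counts and between 0 and 7.16 pooled Hint1-/- counts. Myh4 was the highest, with 2.08, 2.17, 2.91, and 0 counts in Hint1-/- samples and 0 in WT samples. These 4 genes share 16.7% to 26.9% of their 50-base stretches, mostly with each other, and Myh4 shares 7 stretches with Myh6 and Myh7, so their values are uncertain. The part of shared reads in the Myh4 values was not tested. Of the last 5 skeletal genes, Tnni1, Tnnc2, Mybpc1, Mybpc2, and Atp2a1, none exceeded 18 pooled counts in a genotype. Tnnc2, fast troponin C, is uncertain for another reason, since 55.0% of its stretches lie in Ube2c on the other strand, which had 2036 to 2656 counts in a sample.

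Over all 41 members, the Hint1-/- samples all lay above the WT samples in 8 genes and below them in 1 gene, where 7.96% and 9.57% of the 18533 genes did so. The 8 genes were Myl7, Myh7, Myl3, Myh6, Actc1, Tnnt2, Tnnc1, and Myl1. The median log2 fold change of the 14 members tested was 0.0033, beside 0.00031 over all genes tested, and was 0.49 in DESeq2, which fitted all 41. These 14 include the 3 that passed through the Hint1-/- samples alone and Nebl, which passed through the WT samples alone. Myl3, Actc1, and Myl1 are not among the 14.

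Myh6 and Myh7 lie next to each other on chromosome 14 with 3.76 kb between them, and 1373 of their 50-base stretches are shared, which is 21.9% of those of Myh6 and 21.2% of those of Myh7. Reads from such stretches were divided between them by the authors' counting, so the split between the pair is less certain than their sum. Within the Hint1-/- samples, Myh6 exceeded Myh7 by 2.32, 1.88, 1.25, and 1.14 times in replicates 1, 2, 3, and 4. The order was the same in all 4, but the size varied because Myh7 was lowest in replicate 1 and Myh6 in replicate 4. Both genes overlap annotated antisense transcripts, Gm49130 for Myh6 and Mhrt among others for Myh7, and the sources used here do not say whether counting used strand.

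The cardiac genes that were near 0 in WT MASMCs spread more widely among the Hint1-/- samples than most genes of similar counts. A variance divided by the mean is about 1 for counts that differ by sampling alone, and its median was 0.977 over the 2518 genes with a mean of 10 to 100 counts in these 4 libraries. It was 4.34 for Myl7, 3.58 for Actc1, 3.30 for Myh7, and 3.05 for Myh6, against 0.685 for Tnnt2, 0.739 for Tnnc1, and 0.932 for Tnni3. Between 92.0% and 96.3% of the 2518 genes lay below the values of Myl7, Actc1, Myh7, and Myh6. Such spread was also seen in members that both genotypes expressed, since among the WT samples the variance divided by the mean was 3.52 for Ryr1, 3.17 for Tnni2, and 2.93 for Ldb3, above 91.1% to 94.0% of 2512 genes. Replicate 3 had the most counts of Myl7, Actc1, Myl3, Myh7, and Myh6 alike, and replicate 4 had the fewest of each but Myh7. The sum over these 5 genes ran from 78.5 in replicate 4 to 166 in replicate 3. With 4 samples these variances are rough, and they are given without a test.

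**Figure D4:**
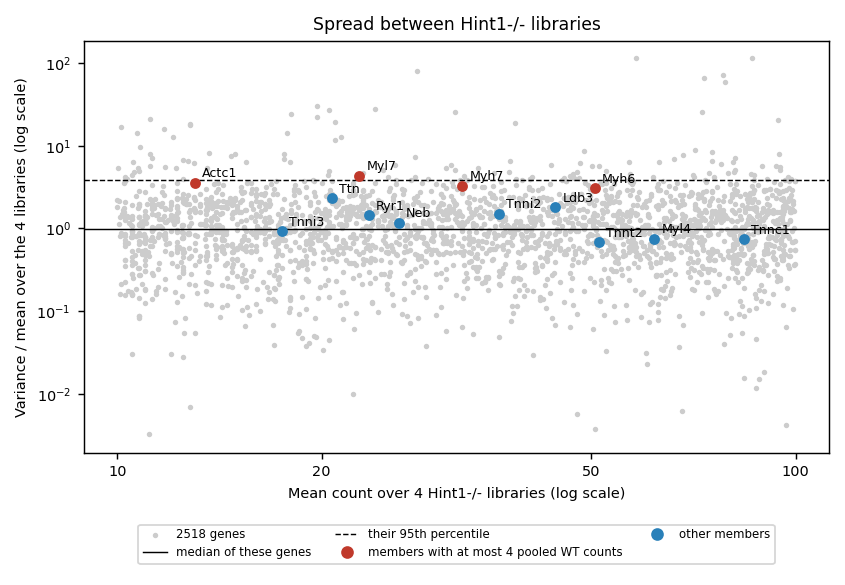
Variance divided by mean over the 4 Hint1-/- libraries (y axis, log scale) against the mean count (x axis, log scale), after scaling to equal library size, for 2518 genes with a mean of 10 to 100 counts (grey). Red points are members with at most 4 pooled WT counts and blue points are other members. The solid line is the median, 0.977, and the dashed line the 95th percentile, 3.82, and the 4 red points lie at 3.05 to 4.34.

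Levels of different genes can be compared only per length. Per kilobase of annotated exon, the pooled Hint1-/- counts were 323 for Tnnc1, 154 for Myl7, 32.2 for Actc1, 30.1 for Myh6, 26.4 for Tnnt2, 15.0 for Myh7, and 7.93 for Myl3. Myl7 thus stood above Myh6 in counts per length, although it had fewer counts. Atp2a2 had 5591 counts per kilobase on the same scale. At their highest, the genes that were near 0 in WT MASMCs were therefore rare transcripts, with Myh6 at 2.43 ± 0.602 CPM and Myl7 at 1.10 ± 0.476 CPM in Hint1-/- samples (SD, n = 4).

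Of 62 further genes for sarcomere assembly, excitation, and muscle metabolism, 61 had rows, 25 were tested, and only Myom1 was called, beside the 2.83% called over all genes. At an adjusted p under 0.05 with no fold limit, 3 of the 25 were higher and 5 lower, where 11.2% of all genes tested were higher and 10.2% lower. Myom1 encodes myomesin, which links thick filaments at the M-band, and fell from 80, 59, 70, and 83 counts to 47, 33, 33, and 42. For Myom1, edgeR gave a log2 fold change of −0.90 with SE 0.16 and adjusted p = 0.000502. The median log2 fold change of the 25 genes was −0.08. Counts of Csrp3, Myoz2, and Smpx, small proteins of the cardiac and skeletal Z-disc or cytoskeleton, were 0 in WT and 2 in Hint1-/- MASMCs for each gene. Myot, a Z-disc protein gene too low to test, had 39 pooled WT counts and 15 pooled Hint1-/- counts.

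Of the transcription factors that act in the developing heart, Gata4, Tbx20, and Hand2 were higher in Hint1-/- MASMCs, while the MEF2 and SRF genes were not called. Of 28 factors of heart and skeletal muscle, 25 had rows and 15 were tested, of which 3 were called higher and 1 lower, where 1.34% of all genes tested were called higher and 1.49% lower. This list too was chosen with earlier results of these samples known. Gata4, a zinc finger factor of the cardiac program, rose from 12, 15, 9, and 16 counts in WT samples to 45, 45, 26, and 40 in Hint1-/- samples. The genotypes did not overlap, and edgeR gave Gata4 a log2 fold change of 1.59 with SE 0.24 and adjusted p = 9.2e-05. Tbx20, a T-box factor of the heart, rose from 5.57, 6.37, 4, and 10.98 counts to 13.61, 17.46, 22.83, and 23.53. For Tbx20, edgeR gave a log2 fold change of 1.52 with SE 0.32 and adjusted p = 0.00191. Among WT samples only replicate 4 reached the filter's count minimum for Tbx20, so it passed only because of the Hint1-/- samples. The filter thus selected Tbx20 by its higher group, and its adjusted p is given as a description. Gata4 fell under that minimum in WT replicate 3, at 9 counts, so it too needed the Hint1-/- samples to pass. The adjusted p of Gata4 is likewise given as a description. Hand2, a basic helix-loop-helix factor of the right ventricle and outflow tract, rose from 147, 137, 137, and 155 counts to 239, 234, 246, and 228 (edgeR log2 fold change 0.73 with SE 0.074 and adjusted p = 8.0e-07). These factors are also expressed in mesenchymal cells outside the heart. Gata6, which vascular smooth muscle uses, passed the limit on p within the fold limit (edgeR log2 fold change 0.28 with SE 0.040 and adjusted p = 5.0e-05).

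Some cardiac factors were too low to test. Tbx5, a T-box factor of atria and left ventricle, had 0, 2.71, 2.01, and 1 counts in WT samples and 12, 5.16, 8.89, and 13.93 in Hint1-/- samples. The genotypes did not overlap, and the pooled ratio was 6.99 (95% interval 2.90 to 20.8). Nkx2-5, a homeobox factor that marks cardiac muscle, had 0 counts in WT samples and 0, 0, 3, and 1 in Hint1-/- samples. The lower end of the 95% interval of its ratio was 0.660, so no difference was detectable for Nkx2-5 at this depth. Myocd, the SRF partner of heart and smooth muscle, had 47 pooled WT counts and 31.1 pooled Hint1-/- counts. Mef2c had 436 to 480 counts in a WT sample and 426 to 473 in a Hint1-/- sample (log2 fold change −0.0064, SE 0.057), and Srf had a log2 fold change of 0.0020 (SE 0.037). Their samples overlapped.

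Regulators of the skeletal muscle lineage were rare or lower. Myog, which drives fusion into fibres, had 3 pooled WT counts and 0 pooled Hint1-/- counts, and Myf5 had 1 and 0, while Myod1 was not analysed here. Pax3, a factor of muscle precursors and of neural crest, fell from 23, 38.89, 22.11, and 29.09 counts to 15, 22, 19.04, and 11. Its call (edgeR log2 fold change −0.74 with SE 0.25 and adjusted p = 0.0451) was lost in 6 of 14 other fits, and the highest Hint1-/- sample, at 22 counts, nearly met the lowest WT sample, at 22.11.

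**Figure D5:**
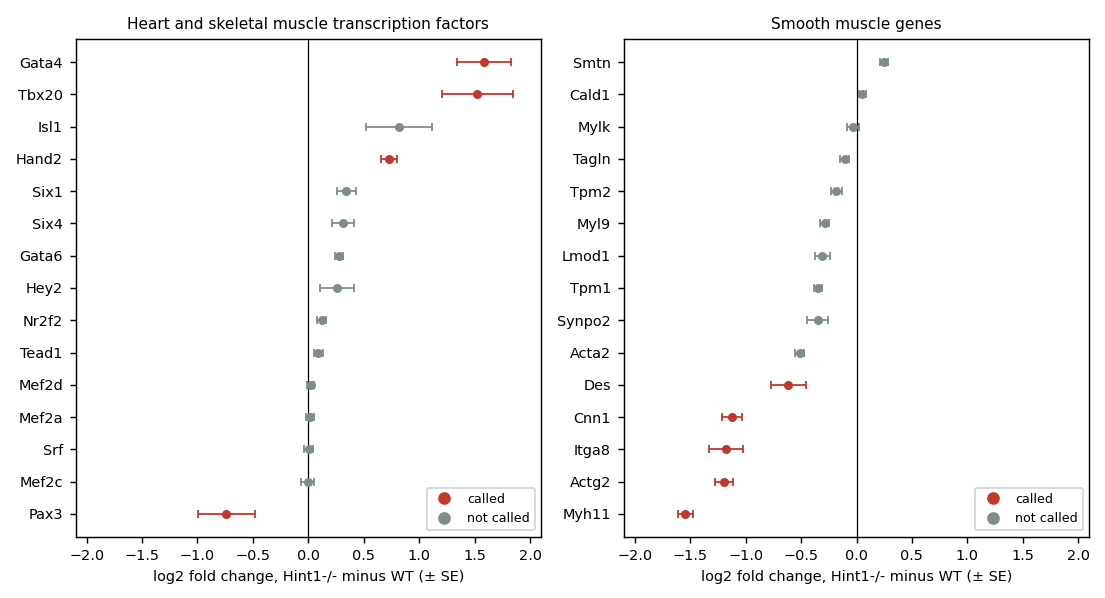
Log2 fold change, Hint1-/- minus WT, with its SE (x axis) for the 15 tested factors of heart and skeletal muscle (left) and 15 smooth muscle genes (right), from edgeR. Red points passed both thresholds. Gata4, Tbx20, and Hand2 lie on the higher side at 1.59, 1.52, and 0.73, while Myh11, Actg2, Itga8, Cnn1, and Des lie on the lower side.

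The smooth muscle genes, a list of mostly contractile and cytoskeletal genes that also holds the integrin gene Itga8, were mostly lower in the same Hint1-/- samples. Of 15 genes tested, 5 were called lower and none higher, and 11 were lower and 1 (Smtn) higher at an adjusted p under 0.05 with no fold limit. Over all genes tested, 10.2% were lower and 11.2% higher by that p. Myh11, the smooth muscle myosin heavy chain, fell from 20.4 ± 1.03 to 6.98 ± 0.348 CPM (SD, n = 4 per genotype), and edgeR gave a log2 fold change of −1.54 with SE 0.067 and adjusted p = 5.3e-12. Thus Myh11 was lower in the samples in which Myh6 and Myh7, its cardiac paralogs, were higher. Actg2, the enteric smooth muscle actin, fell by 1.20 on the log2 scale, and Cnn1, which encodes calponin, by 1.12 (SE 0.081 and 0.092, with adjusted p = 3.2e-09 and 5.0e-08 from edgeR). Acta2 fell by 0.51 on the log2 scale, within the fold limit (SE 0.038 and adjusted p = 1.4e-08 from edgeR). Itga8 and Des were the remaining called genes, at log2 fold changes of −1.18 and −0.61.

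Markers of other cells that an aortic culture can hold also differed between the genotypes, and their part in the sarcomere gene values was not tested. The 6 Schwann cell markers summed to 41.3 to 47.7 CPM in WT samples and 9.13 to 11.6 CPM in Hint1-/- samples, with 5 of 6 called lower, Sox10 and Ngfr among them. The 6 fibroblast markers summed to 1447 to 1562 CPM in WT samples and 2413 to 2538 CPM in Hint1-/- samples, with Dcn, Lum, and Tcf21 called higher and Dpt called lower. The 6 macrophage markers summed to 1887 to 2186 CPM and 1528 to 1623 CPM, and all 5 that were tested were lower at an adjusted p under 0.05 within the fold limit. The 6 endothelial markers summed to 5.15 to 7.08 CPM and 4.71 to 6.62 CPM, and none of 4 tested was called. The genes of working heart muscle are members themselves, and they differed among each other. Mb, Pln, and Myl2 had at most 7.19 pooled counts in either genotype. Myl7, Myh6, Myh7, Actc1, Myl3, Tnnt2, and Tnnc1 were higher in Hint1-/- samples without overlap, and Nebl was lower without overlap. In Myl4, Tnni3, Mybpc3, Ryr2, Casq2, Nppa, and Nppb the genotypes overlapped, with Casq2, Nppa, and Nppb having fewer pooled counts in Hint1-/- samples.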

How the data were processed

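Total RNA of PDGF-BB-treated MASMCs had been sequenced as 50-bp reads on a BGISEQ-500. The authors deposited 8 files, 1 per sample, with unscaled estimated counts (2 decimals) for 18533 gene symbols, and 67.3% to 67.8% of a file's values were whole. The methods name HISAT2 and mm10, whereas the submitters' processing notes name Bowtie2, RSEM 1.3.1, DESeq2 1.4.5, and mm10. The annotation and any use of strand are not given in the sources used here. Samples were grouped by genotype from their labels.

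Counts were rounded, filtered with filterByExpr, normalized by TMM, and fitted with genotype as the only term in edgeR 4.0.16 (R 4.3.3) by the two-sided quasi-likelihood test, and p-values were adjusted by Benjamini-Hochberg over all 13535 genes tested. Thresholds were an adjusted p under 0.05 and a fold change over 1.5, as the study used. SE is the log2 fold change divided by the square root of F. CPM were computed from the deposited counts with TMM factors. Pooled counts are sums of deposited values over 4 libraries, with 95% exact intervals and a floor of 3 counts. The fits were tested on simulated data. Gene positions, exon lengths, and shared 50-base stretches came from GENCODE M21, and promoters from RefSeq. Shared stretches were searched only among genes with a row in the count files. Members and lists (other striated muscle genes, transcription factors, smooth muscle genes, and endothelial, macrophage, Schwann cell, and fibroblast markers) were chosen with earlier results of these data known. All 41 members were accounted for, those with at least 20 pooled counts in a genotype by their 8 values, and genes of other lists were named where called, where always reported (such as Nkx2-5, Mef2c, Srf, and Myog), or as examples chosen after their values were seen. Alternatives were DESeq2 1.42.0, DESeq2's size factors or upper-quartile factors in edgeR, no filter, at least 10 counts in every sample, no fold limit, the replicate number as a block, and each sample left out. For pooled ratios, TMM-scaled counts and rounded counts were also tried, and for levels per length, the longest transcript.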

Additional observations from a re-analysis of the deposited data

Results flagged for a closer look

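In 4 of 57 groups of 4 samples examined, 1 sample stood apart: its distance in log2 CPM to the nearest of the other 3 exceeded 0.829 of the group's range. Chance gives such a distance in about 1 in 20 groups, or 2.85 of 57. The share was 0.876 for Myh6 in Hint1-/- replicate 4, at 32.3 counts where the others had 53.56 to 58.46. It was 0.866 for Myl4 in Hint1-/- replicate 1, at 72.17 counts where the others had 57.37 to 59.1. It was 0.881 for Atp2a2 in WT replicate 3, at 8223 counts where the others had 8377.01 to 8446. It was 0.837 for Acta2 in WT replicate 2, at 15956 counts where the others had 17467 to 17855.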

How the results depend on the processing

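Gata4, Tbx20, Hand2, Myom1, Myh11, Actg2, Itga8, and Cnn1 kept their calls and directions in every alternative that tested them. Calls on members were fixed in part by how the list was chosen, and their counts are given without reading stability from them. Without the fold limit, the calls rose to 2907 over all genes, 8 other striated muscle genes, 8 transcription factors, and 12 smooth muscle genes. Members called higher became 7 with no filter on low counts, where Actc1, Myl3, and Myl1 were added. With at least 10 counts in every sample, members called higher became 1, members called lower 0, and transcription factors 2. That filter drops any gene with a sample under 10 counts, so it did not test Tbx20 or Gata4, which had 9 counts in WT replicate 3. With each sample left out, members called higher ranged from 4 to 7, the most without WT replicate 2, when Actc1, Tnni3, and Tnnc1 were added. The median log2 fold change of tested members was 0.49 with no filter, −0.0479 with at least 10 counts in every sample, 0.49 in DESeq2 (0.4949), and −0.0080 to 0.11 with a sample left out. Mef2c and Srf stayed near 0 with either sign: Mef2c ranged from −0.0324 to 0.0203 and Srf from −0.0168 to 0.0257 with a sample left out, and Srf was −0.0087 with upper-quartile factors and −0.0010 with at least 10 counts in every sample. Pax3 lost its call in DESeq2 and 5 fits without a sample, with adjusted p from 0.0320 to 0.156 over its alternatives, and Des within the fold limit without WT replicate 2 or Hint1-/- replicate 2. The cause was not tested. Ratios against the floor of 3 counts ranged from 19.0 to 30.3 for Myl7 and from 3.07 to 5.40 for Myl3 with a sample left out. The ratio of Myh6 then ranged from 37.9 to 152. Exon length mattered for Tnnt2, at 61.6 pooled Hint1-/- counts per kilobase of the longest transcript, Tnnc1, at 466, Myh7, at 20.7, and Myl3, at 14.4. By that length Tnnt2 stood above Actc1, at 35.3, and Myh6, at 33.1, whereas it stood below both per kilobase of annotated exon. The replicate numbers are shared by the genotypes, but same-numbered samples did not deviate together (Pearson's r across genes −0.0450 to 0.0814), and not every sample correlated best with its own number. With the replicate block, 382 genes were called, and the calls of the members (4 higher, 1 lower) and of the other lists were as many as without it. Low counts limit most members: 16 had fewer than 20 pooled counts in both genotypes.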
